A study of Mus musculus with 37 samples.

Results

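Cultured cells of mouse osteosarcoma labelled as lacking Wwox and p53 (DKO tumor) were compared with cultured bone marrow cells of young DKO mice that had no tumor (DKO yBM). The comparison used 3 tumor libraries and 6 yBM libraries, 9 of the 37 RNA-seq libraries of the series, and took in the 13218 genes that reached 1 TPM in 3 or more of the 9. TPM is a transcript level scaled for transcript length and for the total of a library. Both groups are DKO by label. In these mice Osx1-Cre, which is active in osteoblast progenitors, removes the tumor suppressor gene Wwox together with Trp53, the gene of p53, and switches on the Rosa26-LSL-tdTomato reporter. The tumors were cut up and digested with enzymes, whereas the marrow was flushed from leg bones, and RNA was taken after 3 passages, when the tdTomato-positive cells were the majority. The labels give an age of 1.5 months for DKO yBM 1 to 3 and of 4 months for DKO yBM 4 to 6, and none for the tumors. Tissue, stage, age and the way the cells were freed therefore all separate the groups and cannot be told apart. The other 7 libraries of the same set of 16 (set 1) entered the model only to estimate the spread. Of these, 4 are of bone marrow from control mice (control BM), which the study's methods give as wild type. The other 3 are of marrow from tumor-bearing DKO mice (DKO BMT). The study calls the BMT cells the pairs of the tumors, which the model did not use. The 21 libraries of set 2, which hold the same comparison with 3 DKO tumor and 3 DKO yBM libraries, are given beside the results.

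Osteosarcoma is a bone tumor whose cells make bone matrix, and mesenchymal stem cells and osteoblasts are both debated as its origin. Osteoblasts and marrow stromal cells share a mesenchymal ancestor, while macrophages and osteoclasts descend from blood stem cells and depend on the transcription factor PU.1, the product of Spi1. Cultures of adherent marrow cells are known to keep macrophages beside the stromal cells. PU.1 binds a purine-rich element, the PU box, in the control regions of many myeloid genes. In bulk RNA, fewer cells of a type and less RNA per cell cannot be told apart.

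Few genes passed the test, and most of those that did were lower in tumor cells. Of the 13218 genes, 22 were called (0.166%) by limma with Benjamini-Hochberg adjustment at an adjusted p under 0.05, of which 7 (0.053% of the genes) were higher and 15 (0.113%) lower in DKO tumor. Rac2, Cyth4, Clec12a, Ccl3 and Lat2, genes of white blood cells, fell the furthest, by 4.12 to 4.94 on the log2(TPM + 1) scale, and Ptn, which encodes the growth factor pleiotrophin, rose by 3.57. At an unadjusted p under 0.05, 2136 genes passed, 1200 higher and 936 lower. The median log2 fold change over all genes was 0.17, and 64.0% of the genes had a positive value. With each library scaled to the median ratio of its genes, that median was -0.0077, so a list's median is read here against 0.17. The calls depended on single libraries: without DKO tumor 1 there were 319, and without DKO tumor 2, DKO yBM 1, DKO yBM 2 or DKO yBM 5 there were none (1461 to 1989 at an unadjusted p under 0.05).

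The libraries were not alike within the tumor group. Pearson's r between log2(TPM + 1) values, across genes, was 0.913 for DKO tumor 2 and 3 but 0.844 for DKO tumor 1 and 2 and 0.841 for DKO tumor 1 and 3. Pairs of yBM libraries reached 0.884 to 0.970, and pairs of a tumor and a yBM library 0.810 to 0.909. DKO tumor 1 had r of 0.849 to 0.909 with the 6 yBM libraries, and so stood closer to each of them than to either other tumor. Over the 500 most variable genes, the first principal component (45.1% of the variance) placed DKO tumor 2 and 3 at 58.5 and 55.6, DKO tumor 1 at -5.89, and the yBM libraries between -35.0 and 12.7. The libraries held 12461 to 12622 genes with at least 1 TPM in DKO tumor and 12113 to 12640 in DKO yBM, and the mitochondrial genome made up 8.93% to 17.0% of the TPM in DKO tumor and 10.9% to 23.1% in DKO yBM. DKO tumor 3 had 8.25 TPM of Xist and 0.014 TPM of Ddx3y, whereas the other 8 libraries had at most 0.042 TPM of Xist and at least 5.77 TPM of Ddx3y, so DKO tumor 3 alone carried the pattern of a female.

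The deleted genes were read first, as a check of the labels. Wwox was at 2.92, 0.055 and 0.19 TPM in DKO tumor 1 to 3 and at 0.34, 3.23, 3.26, 4.04, 2.46 and 2.52 TPM in DKO yBM 1 to 6, against 0.92 to 4.26 TPM in control BM. The level went with the labelled deletion in DKO tumor 2 and 3 and in DKO yBM 1, and against it in the libraries labelled DKO tumor 1 and DKO yBM 2 to 6, which lay within the range of control BM. Trp53 was at 11.3, 2.09 and 2.71 TPM in DKO tumor and at 16.2, 13.0, 3.63, 8.30, 9.93 and 10.3 TPM in DKO yBM, all under the 40.1 to 53.4 TPM of control BM. These are values of whole genes, and reads from exons outside the deleted part would still count. Neither gene differed past the threshold between DKO tumor and DKO yBM (Wwox, log2 fold change -0.99 ± 0.53 SE, limma adjusted p = 0.36; Trp53, -1.0 ± 0.48 SE, adjusted p = 0.31). A fit was also made without DKO tumor 1 and DKO yBM 2 to 6, a choice made after the data were seen. It compared DKO tumor 2 and 3 with DKO yBM 1 alone, while control BM and DKO BMT stayed in to estimate the spread. DKO BMT 1 stayed too, although its Wwox, at 4.735 TPM, lay above control BM. The median log2 fold change over all genes was then 0.20.

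Of the called genes, those that fell the furthest in tumor cells were genes of white blood cells. Rac2, a small GTPase of blood cells, was at 9.62, 1.73 and 0.058 TPM in DKO tumor 1 to 3 and at 131, 128, 38.4, 45.6, 142 and 175 TPM in DKO yBM 1 to 6. The groups did not overlap, and the log2 fold change was -4.94 ± 0.86 SE (limma adjusted p = 0.040). Cyth4, an exchange factor for Arf GTPases, was at 32.0, 0.28 and 0.12 TPM in DKO tumor and at 164, 95.6, 34.5, 131, 139 and 96.9 TPM in DKO yBM (-4.80 ± 0.89 SE, adjusted p = 0.045). Clec12a, an inhibitory lectin receptor of myeloid cells, was at 17.7, 0.078 and 0.60 TPM in DKO tumor and at 201, 68.5, 28.2, 90.4, 140 and 79.6 TPM in DKO yBM (-4.77 ± 0.86 SE, adjusted p = 0.042). In all these genes DKO tumor 1 was the highest tumor, and DKO yBM 3 the lowest yBM library. Ccl3, a chemokine of macrophages, was at 17.5, 0 and 0.14 TPM in DKO tumor and at 19.3 to 86.0 TPM in DKO yBM, with a median of 58.7 (-4.26 ± 0.80 SE, adjusted p = 0.049). Lat2, an adaptor of immune receptors, was at 19.8, 0.63 and 1.42 TPM in DKO tumor and at 23.2 to 152 TPM in DKO yBM, with a median of 81.0 (-4.12 ± 0.75 SE, adjusted p = 0.045). Dock8, an exchange factor for Cdc42 known from lymphocytes, was at 5.56, 0.20 and 0.32 TPM in DKO tumor and at 5.38 to 20.8 TPM in DKO yBM (-2.84 ± 0.53 SE, adjusted p = 0.049), and was the only called gene whose groups overlapped, at DKO tumor 1 and DKO yBM 3; it was named after its values were seen.

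**Figure D1:**
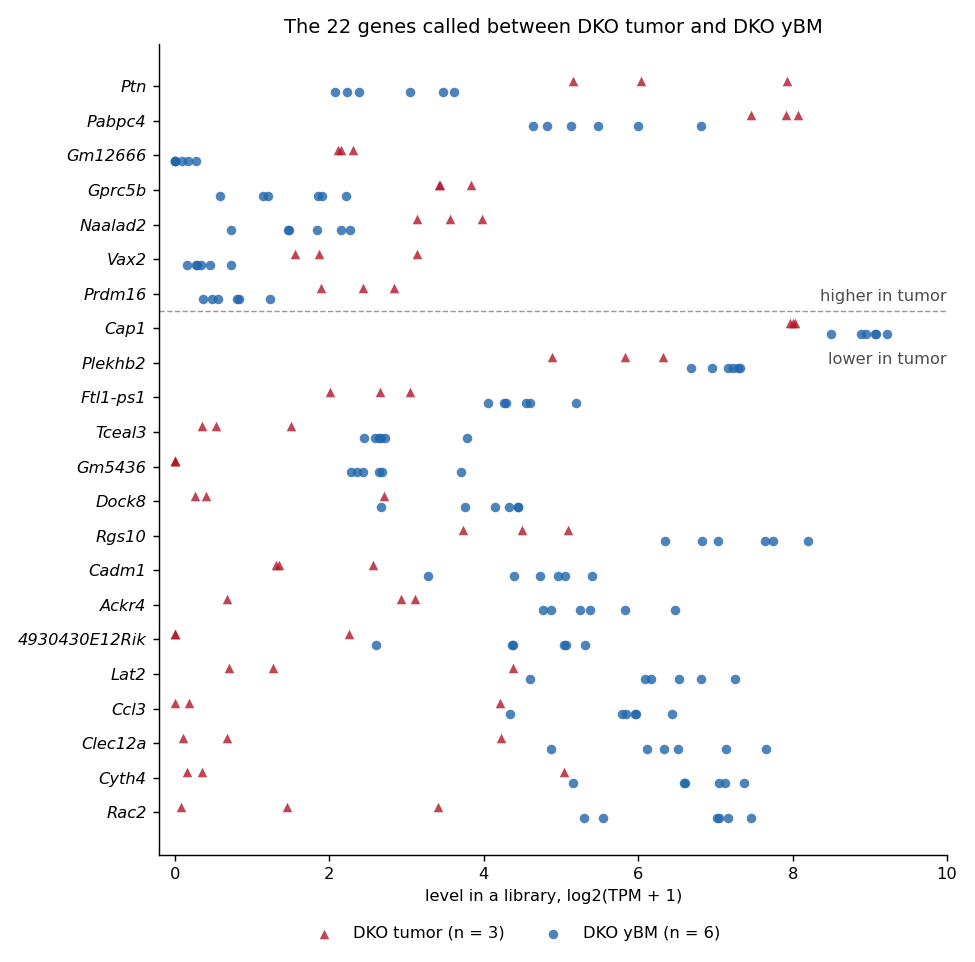
Levels of the 22 called genes on the log2(TPM + 1) scale in each of the 3 DKO tumor libraries (triangles) and the 6 DKO yBM libraries (circles), ordered by log2 fold change. Ptn is at the top with a log2 fold change of 3.57 and Rac2 at the bottom with -4.94, and in the genes at the bottom 1 triangle, that of DKO tumor 1, lies far to the right of the other 2.

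To show what these genes carry upstream, their promoters were searched for the core of the PU box, GAGGAA, on both strands in RefSeq promoters of GRCm38.p6, a build other than that of the study, from 250 bases before to 50 after a gene's start. Of the 15 lower genes, 9 had a promoter in the table and 4 of them held the core, and of the 7 higher genes, 5 had a promoter and 1 held it. Rac2 and Lat2 had no promoter to search. Some genes had more than 1 promoter, and by promoter the core stood in 4 of 12 of the lower genes and 1 of 6 of the higher genes. The core stood in 28.3% of all 32851 promoters, so a match is common and is a description of the letters only. The promoters of the 3 white blood cell genes that held it follow, in the direction of the gene, with the core in capitals (TTCCTC where it lies on the other strand).
Clec12a (chr6:129349994-129350293, plus strand): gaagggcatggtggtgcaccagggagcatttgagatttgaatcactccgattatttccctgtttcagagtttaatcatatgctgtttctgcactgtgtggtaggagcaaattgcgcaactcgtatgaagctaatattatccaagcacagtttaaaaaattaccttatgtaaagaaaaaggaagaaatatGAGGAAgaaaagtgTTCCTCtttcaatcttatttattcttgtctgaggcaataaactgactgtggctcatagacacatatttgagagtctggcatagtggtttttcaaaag
Cyth4 (chr15:78596797-78597096, plus strand): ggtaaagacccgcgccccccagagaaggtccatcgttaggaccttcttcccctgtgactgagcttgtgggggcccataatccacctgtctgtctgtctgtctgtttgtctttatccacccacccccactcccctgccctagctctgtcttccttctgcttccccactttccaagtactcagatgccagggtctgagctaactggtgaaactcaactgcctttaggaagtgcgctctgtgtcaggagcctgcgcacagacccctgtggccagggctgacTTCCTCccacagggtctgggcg
Ccl3 (chr11:83649329-83649628, minus strand): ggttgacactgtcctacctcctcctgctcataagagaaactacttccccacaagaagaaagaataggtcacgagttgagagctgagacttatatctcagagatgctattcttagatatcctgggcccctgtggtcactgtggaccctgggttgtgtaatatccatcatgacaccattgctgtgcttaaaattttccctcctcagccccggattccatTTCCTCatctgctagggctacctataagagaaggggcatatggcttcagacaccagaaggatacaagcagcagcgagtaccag

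Clec12a held 2 copies of the core, and Cyth4 and Ccl3 1 each. Cap1 also held 1, and the promoters of Ackr4, Dock8, Plekhb2, Rgs10 and Tceal3 held none in this window. Among the higher genes Pabpc4 held 1, and the promoters of Gprc5b, Naalad2, Prdm16 and Ptn held none.

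The list of macrophage and other leukocyte genes was lower in value in the same direction, but no member passed the test. Of its 32 genes 31 were tested, 0 were called, and 27 had an unadjusted p under 0.05 with a lower level in DKO tumor, against 7.08% of all genes. The median log2 fold change of the list was -4.08. Its summed level was 4590, 14.4 and 28.1 TPM in DKO tumor 1 to 3 and 19842, 11811, 1140, 4745.5, 11942 and 7476 TPM in DKO yBM 1 to 6. DKO tumor 2 and 3 thus had almost none of this RNA, and DKO tumor 1 had nearly as much as DKO yBM 4 and more than DKO yBM 3. At least 1 TPM was reached by 30, 2 and 4 of the 32 genes in DKO tumor 1 to 3 and by 28 to 31 in DKO yBM. In DKO tumor 2, 8 of the 32 were listed at 0, among them C1qc, Aif1, Lcp2, Cybb and Fcgr1, and in DKO tumor 3, 3 were. Since DKO tumor 1 lay within the yBM range, the groups overlapped for all 31 genes.

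Spi1, the gene of PU.1, was at 45.6, 0.12 and 0.12 TPM in DKO tumor and at 254, 151, 41.7, 191, 185 and 138 TPM in DKO yBM (log2 fold change -5.19 ± 1.00 SE, limma adjusted p = 0.054). Tyrobp, the adaptor DAP12 of myeloid receptors, was at 122, 0.21 and 0.34 TPM in DKO tumor and at 660, 378, 71.5, 211, 380 and 242 TPM in DKO yBM (-5.51 ± 1.14 SE, adjusted p = 0.063). Lcp1, the actin bundling protein of leukocytes, was at 73.4, 0.86 and 0.36 TPM in DKO tumor and at 45.2 to 313 TPM in DKO yBM (-4.97 ± 1.00 SE, adjusted p = 0.056). All 3 missed the threshold by a small margin, with DKO tumor 1 above DKO yBM 3 each time. Without DKO tumor 1, 24 of the 31 genes were called, all lower, with a median of -6.06, and without DKO yBM 3 17 were called, all lower, with a median of -4.68. Without DKO tumor 2 no member was called and the median was -3.06.

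**Figure D2:**
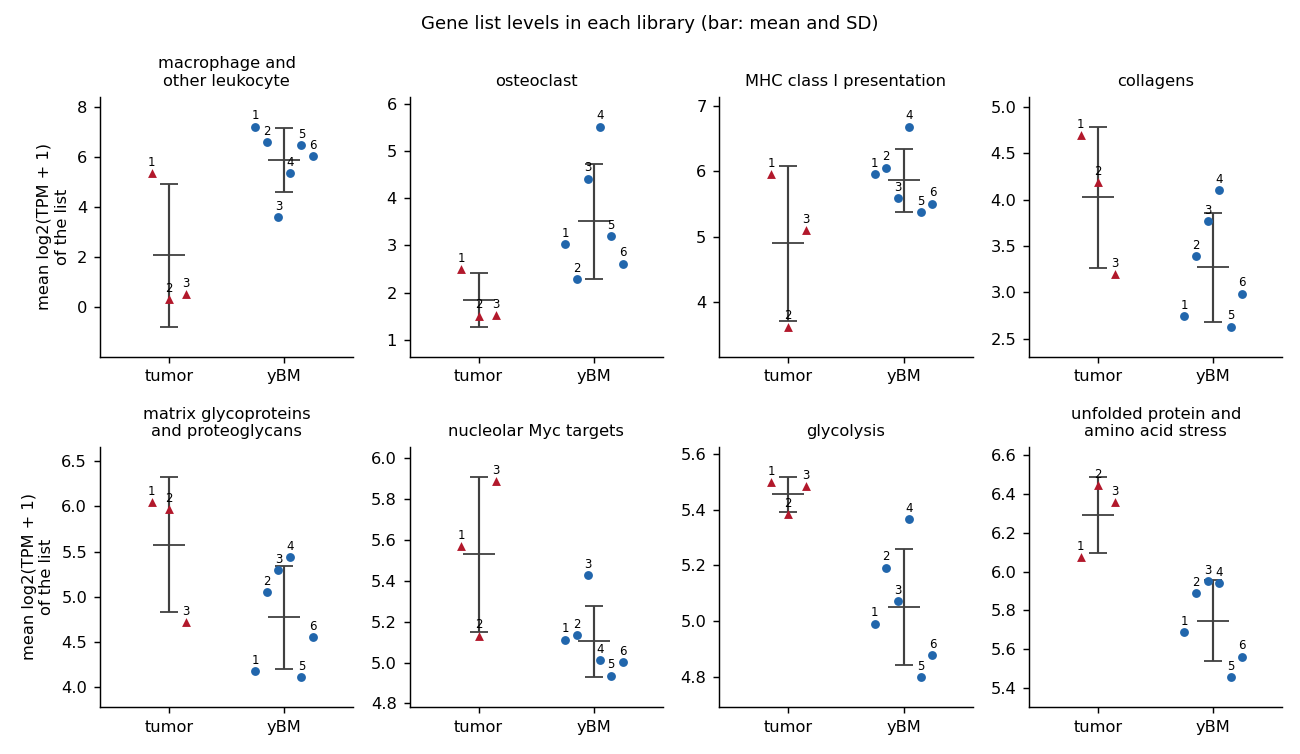
Mean log2(TPM + 1) of the members of 8 gene lists in each DKO tumor library (triangles, left) and DKO yBM library (circles, right), numbered by replicate, with the mean and SD of the group. The leukocyte list splits the tumors into DKO tumor 1 at 5.35 and DKO tumor 2 and 3 at 0.32 and 0.51, while the yBM libraries lie between 3.60 and 7.21, and the unfolded protein list has all 3 tumors above all 6 yBM libraries.

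Other blood cell lists held no called gene. The summed level of the neutrophil list was 4.49 to 23 TPM in DKO tumor and 11.7 to 2385 TPM in DKO yBM, highest in DKO yBM 3 and 4. Its mean log2(TPM + 1) was only 0.28 to 0.80 in DKO tumor and 0.62 to 1.23 in DKO yBM, highest in DKO yBM 5. Few of its genes therefore carry the largest sums, and 0 of its 5 tested genes were called. The lymphocyte list summed to 0.43 to 2.12 TPM in DKO tumor and 2.31 to 29.2 TPM in DKO yBM, the erythroid and megakaryocyte list to 0.75 to 3.65 TPM and 0.64 to 3.39 TPM. Of the 10 tested osteoclast genes, 0 were called, and 5 were lower at an unadjusted p under 0.05, against 7.08% of all genes. With no overlap between groups 4 were lower, against 2.53% of all genes. The median log2 fold change of that list was -1.94. Atp6v0d2, a proton pump subunit needed for osteoclast fusion, was at 2.36, 0.033 and 0.13 TPM in DKO tumor and at 61.6, 11.1, 31.0, 65.0, 66.2 and 46.0 TPM in DKO yBM (-4.72 ± 1.21 SE, limma adjusted p = 0.11). Tnfrsf11a, which encodes the receptor RANK, was at 0.80, 0.45 and 0.054 TPM in DKO tumor and at 2.80 to 9.37 TPM in DKO yBM (-1.86 ± 0.48 SE, adjusted p = 0.11). For both genes all 3 tumors lay under all 6 yBM libraries, DKO tumor 1 included. Ctsk, the collagenase of osteoclasts, did overlap, with 184, 78.1 and 29.4 TPM in DKO tumor and 133 to 1732 TPM in DKO yBM (-2.13 ± 0.81 SE, adjusted p = 0.24). The leukocyte level differs in the same direction. With the mean level of the leukocyte list in the fit as a covariate the osteoclast median was -2.04, with no gene called, and without DKO tumor 1 it was also -2.04. The leukocyte level was lower in DKO tumor 2 and 3 than in every yBM library, so the covariate overlaps with the group. The cause was not tested.

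Genes of antigen presentation and chemokines followed the leukocyte list in direction. Of 20 tested genes of MHC class I presentation 0 were called, and the median was -0.84. At an unadjusted p under 0.05 7 were lower, against 7.08% of all genes. B2m, the light chain of MHC class I, was at 1605, 706 and 1019.5 TPM in DKO tumor and at 2567, 2485, 1840.2, 2827, 1961 and 2228 TPM in DKO yBM, and the groups did not overlap (-1.13 ± 0.32 SE, limma adjusted p = 0.13). Without DKO tumor 1, 3 genes of this list were called, all lower, B2m among them. Of 29 tested chemokine and cytokine genes Ccl3 was called, lower. At an unadjusted p under 0.05 9 were lower and 3 higher, against 7.08% and 9.08% of all genes. Ccl4, a chemokine of the same kind as Ccl3, was at 10.7, 0 and 0 TPM in DKO tumor and at 8.24 to 35.1 TPM in DKO yBM (-3.09 ± 0.73 SE, adjusted p = 0.095). Cx3cl1, the chemokine fractalkine, went the other way, with 42.0, 27.6 and 8.19 TPM in DKO tumor and 2.38 to 10.7 TPM in DKO yBM (2.06 ± 0.48 SE, adjusted p = 0.092). Of 34 tested interferon response genes 0 were called and 0 had an unadjusted p under 0.05. The list's mean level was 5.13 in DKO tumor 1 and 2.36 and 2.10 in DKO tumor 2 and 3, against 2.73 to 4.62 in DKO yBM.

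The remaining lower calls were not all genes of white blood cells. Cadm1, a cell adhesion molecule of the immunoglobulin family, was at 4.94, 1.49 and 1.56 TPM in DKO tumor and at 41.3, 25.4, 8.74, 20.1, 30.3 and 32.1 TPM in DKO yBM (log2 fold change -2.89 ± 0.43 SE, limma adjusted p = 0.038). Ackr4, a decoy receptor that takes up chemokines such as CCL19 and CCL21, was at 6.65, 0.60 and 7.67 TPM in DKO tumor and at 28.3, 88.0, 37.1, 26.4, 40.5 and 56.0 TPM in DKO yBM (-3.19 ± 0.50 SE, adjusted p = 0.038). Rgs10, a regulator of G protein signaling, was at 33.0, 21.5 and 12.3 TPM in DKO tumor and at 292, 130, 80.5, 199, 214 and 113 TPM in DKO yBM (-2.86 ± 0.46 SE, adjusted p = 0.038). Elsewhere Rgs10 was at 78.7 to 267 TPM in control BM of set 1. In set 2 it was at 13.1 to 23.8 TPM in DKO tumor and 9.81 to 16.8 TPM in DKO yBM, libraries with hardly any leukocyte RNA. In Cadm1, Ackr4 and Rgs10 all tumors lay below all yBM libraries, as they did in Rac2, Cyth4, Clec12a, Ccl3 and Lat2. What lowered these genes was not tested. Plekhb2, a membrane protein of endosomes with a pleckstrin homology domain, was at 55.8, 28.6 and 79.1 TPM in DKO tumor and at 102 to 158 TPM in DKO yBM (-1.43 ± 0.26 SE, adjusted p = 0.045). Cap1, an actin regulator bound to adenylyl cyclase in yeast, had the smallest change and the least spread, with 256, 261 and 249 TPM in DKO tumor and 540, 472, 359, 535, 598 and 493 TPM in DKO yBM (-0.95 ± 0.18 SE, adjusted p = 0.045). Tceal3, a member of the TFIIS-like family, was at 0.45, 1.84 and 0.28 TPM in DKO tumor and at 4.49 to 12.8 TPM in DKO yBM (-2.01 ± 0.36 SE, adjusted p = 0.042). Ftl1-ps1, a ferritin light chain pseudogene, was at 3.02 to 7.26 TPM in DKO tumor and at 15.6 to 35.7 TPM in DKO yBM, and reads of its near-identical parent could have been assigned to it. The gene models Gm5436 (listed at 0 in all 3 tumors, 3.87 to 12.0 TPM in DKO yBM) and 4930430E12Rik (3.79, 0 and 0 TPM in DKO tumor, 5.11 to 38.6 TPM in DKO yBM) complete the 15 and were chosen with their values in view.

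These calls moved with the leukocyte level to different degrees. When the mean level of the leukocyte list entered the fit as a covariate, no gene was called, 860 had an unadjusted p under 0.05, and the median over all genes was 0.067. The log2 fold change of Cyth4 was then -1.77, that of Clec12a -1.70, that of Lat2 -1.50 and that of Ccl3 -1.46, while Rac2 was at -3.05. Cadm1 was at -1.60, Rgs10 at -1.72 and Ackr4 at -2.47, each closer to 0 than without the covariate. Tceal3 was at -2.07, Plekhb2 at -1.33 and Cap1 at -0.84, against -2.01, -1.43 and -0.95 without it. The median of the leukocyte list, whose own mean was the covariate, was then -0.32, and that of MHC class I presentation 0.13.

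Among the 7 higher genes, Ptn stood out in size. It was at 34.7, 241 and 65.0 TPM in DKO tumor 1 to 3 and at 4.22, 3.68, 10.1, 11.2, 3.20 and 7.26 TPM in DKO yBM 1 to 6, against 1.90 to 24.3 TPM in control BM. The lowest tumor was above the highest yBM library, and DKO tumor 2 was far above the other tumors (log2 fold change 3.57 ± 0.63 SE, limma adjusted p = 0.042). Pabpc4, a cytoplasmic poly(A)-binding protein, was at 240, 175 and 268 TPM in DKO tumor and at 27.2, 43.8, 63.2, 111, 23.9 and 34.2 TPM in DKO yBM (2.33 ± 0.41 SE, adjusted p = 0.040). Control BM had 67.6 to 134 TPM of Pabpc4, a range that lay between the tumors and most of the yBM libraries. Gprc5b, an orphan receptor of the class C family, was at 9.73, 13.3 and 9.84 TPM in DKO tumor and at 1.21, 2.62, 2.76, 3.67, 0.50 and 1.32 TPM in DKO yBM (2.08 ± 0.36 SE, adjusted p = 0.040). Naalad2, a carboxypeptidase of the family of the prostate membrane antigen, was at 7.82, 14.8 and 10.8 TPM in DKO tumor and at 0.66 to 3.83 TPM in DKO yBM (1.90 ± 0.33 SE, adjusted p = 0.040), and control BM had 5.93 to 13.0 TPM, a range that overlapped that of the tumors. Apart from Ptn, these genes lay close together in the 3 tumors.

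The other 3 higher genes averaged under 5 TPM and were chosen with their values in view. Prdm16, a zinc finger regulator of brown fat and of blood stem cells, was at 2.72, 4.40 and 6.19 TPM in DKO tumor and at 0.29 to 1.36 TPM in DKO yBM (log2 fold change 1.68 ± 0.25 SE, limma adjusted p = 0.038). Vax2, a homeobox gene of the developing eye, was at 7.76, 2.66 and 1.95 TPM in DKO tumor and at 0.12 to 0.66 TPM in DKO yBM (1.81 ± 0.31 SE, adjusted p = 0.040). The gene model Gm12666 was at 3.31 to 3.95 TPM in DKO tumor and at 0 to 0.21 TPM in DKO yBM, while control BM had 0 to 3.18 TPM.

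With 4 higher genes that met the naming rule, the next genes by p among those without overlap are given, none of which passed. They were Nr2f2 and Sox9, both transcription factors of mesenchymal and cartilage development, the pseudogene Rpsa-ps10, Rccd1, Lrig1, a brake on epidermal growth factor receptors, Lrrc51, Zfp503, Eng, the coreceptor endoglin, Hgh1, Klhdc8b and the splicing gene Luc7l, with limma adjusted p from 0.055 to 0.094. Nr2f2 was at 9.90, 35.7 and 7.75 TPM in DKO tumor and at 0.84 to 3.10 TPM in DKO yBM (2.45 ± 0.48 SE, adjusted p = 0.055). Sox9 was at 8.02, 17.9 and 6.64 TPM in DKO tumor and at 1.67 to 3.34 TPM in DKO yBM (1.69 ± 0.34 SE, adjusted p = 0.057). Both, like Ptn, were highest in DKO tumor 2. Eng was at 61.9, 51.7 and 35.9 TPM in DKO tumor and at 13.8 to 26.4 TPM in DKO yBM (1.19 ± 0.27 SE, adjusted p = 0.087). In the lower direction, where 12 genes met the rule, the next were Ptpn6, the phosphatase SHP-1 of blood cells, Gpr183, an oxysterol receptor of immune cells, and the adaptor Skap2, at adjusted p of 0.053, 0.053 and 0.055. In all, the groups did not overlap for 548 higher genes (4.15% of the genes tested) and 335 lower genes (2.53%).

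The groups overlapped for all 26 tested genes of mineralized bone matrix, as for most genes, and the tumors differed among themselves. Over all genes, 4.15% were higher and 2.53% lower with no overlap. Of the 26, 11 had a positive and 15 a negative log2 fold change, with a median of -0.37, while 64.0% of all genes were positive. None was called, and 1 was higher and 2 were lower at an unadjusted p under 0.05. At that p 9.08% of all genes were higher and 7.08% lower. Alpl, alkaline phosphatase, was at 343, 3.35 and 664 TPM in DKO tumor 1 to 3 and at 380, 370, 1319, 1607, 448 and 524 TPM in DKO yBM 1 to 6 (-2.69 ± 1.12 SE, limma adjusted p = 0.27). Spp1, the matrix protein osteopontin, was at 690, 41.2 and 367 TPM in DKO tumor and at 627 to 5213 TPM in DKO yBM (-2.50 ± 0.91 SE, adjusted p = 0.22). In both genes DKO tumor 2 was the lowest of the 9 libraries by a wide margin. The same held for 2 genes picked after their values were seen, Ibsp, bone sialoprotein, at 53.8, 0.020 and 7.87 TPM in DKO tumor and 12.8 to 261 TPM in DKO yBM, and Sp7, which encodes osterix, at 20.0, 0.78 and 47.2 TPM in DKO tumor and 13.7 to 47.0 TPM in DKO yBM. DKO tumor 2 therefore had little RNA of the gene whose promoter drives the Cre. Mmp13, the collagenase of bone and a member of the matrix protease list, had no overlap, at 20.1, 0.28 and 55.2 TPM in DKO tumor and at 125, 267, 177, 387, 315 and 389 TPM in DKO yBM (-4.48 ± 0.88 SE, adjusted p = 0.056). Adipoq, the fat cell hormone adiponectin, also picked after its values were seen, marked out DKO tumor 1, at 50.6, 0.13 and 0.035 TPM in DKO tumor and 0.43 to 37.2 TPM in DKO yBM.

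**Figure D3:**
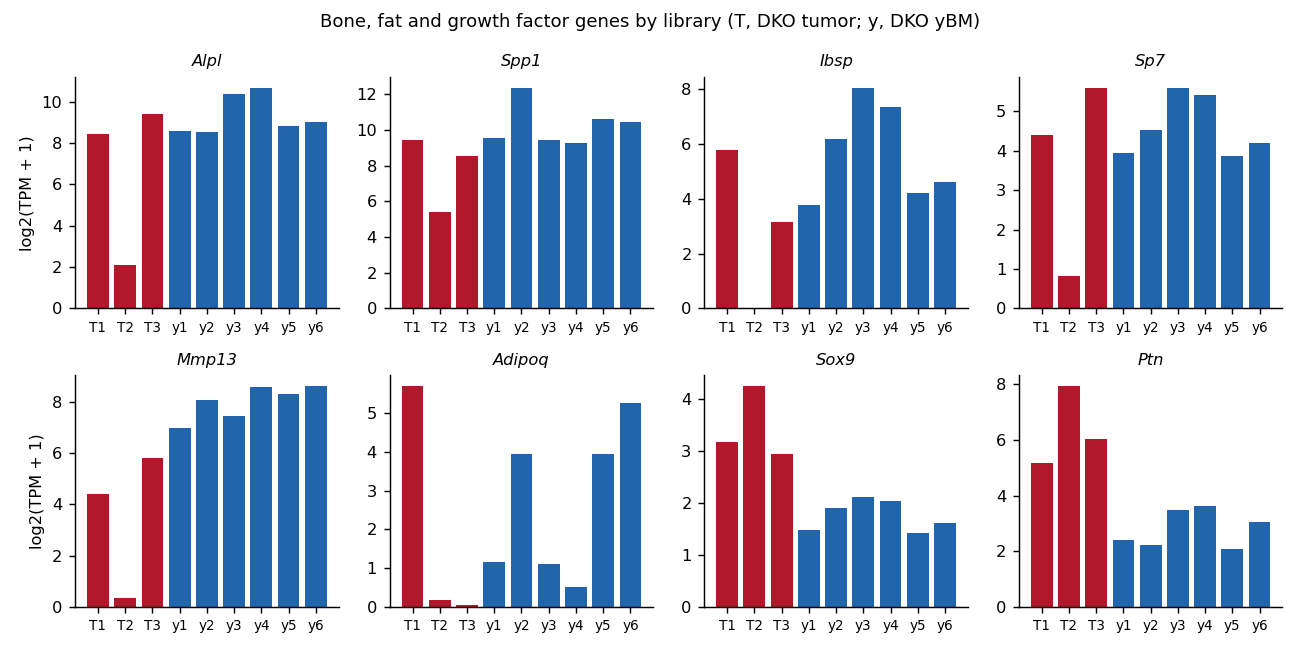
Levels of 8 genes as log2(TPM + 1) in DKO tumor 1 to 3 (T1 to T3, left) and DKO yBM 1 to 6 (y1 to y6); each bar is 1 library and each panel has its own scale from 0. Alpl, Spp1, Ibsp, Sp7 and Mmp13 are lowest in DKO tumor 2, where Alpl is at 3.35 TPM, and the same library has the highest Ptn at 241 TPM.

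Transcription factors of the osteoblast lineage had a positive median without a call, and its sign turned with the leukocyte covariate. Of 20 tested 0 were called, 4 were higher at an unadjusted p under 0.05, against 9.08% of all genes, 3 were higher with no overlap, against 4.15%, and the median was 0.44, or -0.30 with the leukocyte covariate. Twist2, a repressor of osteoblast maturation, was at 10.0, 13.1 and 8.03 TPM in DKO tumor and at 1.31 to 4.89 TPM in DKO yBM (log2 fold change 1.50 ± 0.43 SE, limma adjusted p = 0.14). Sox4 was at 9.14, 16.9 and 10.9 TPM in DKO tumor and at 3.42 to 7.62 TPM in DKO yBM (1.08 ± 0.34 SE, adjusted p = 0.17), and Zfhx4 was at 5.09 to 7.09 TPM and 0.91 to 4.65 TPM (1.25 ± 0.36 SE, adjusted p = 0.14). Of 35 tested genes of the marrow stromal niche Ptn was called, higher. At an unadjusted p under 0.05 9 were higher and 4 lower, against 9.08% and 7.08% of all genes. Vcam1, an adhesion molecule of stroma, was at 45.1, 44.1 and 40.1 TPM in DKO tumor and at 13.4 to 36.1 TPM in DKO yBM (0.97 ± 0.30 SE, adjusted p = 0.17). Of 17 tested genes of limb and axial identity besides Hox 0 were called and 5 were higher at an unadjusted p under 0.05, among them En1, at 9.61, 10.1 and 1.67 TPM in DKO tumor and 0.22 to 2.38 TPM in DKO yBM (1.91 ± 0.56 SE, adjusted p = 0.15). Of 22 tested Hox genes 0 were called, and the median was 0.051.

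Matrix genes had the highest medians of the lists, again with no call. Of 48 tested glycoproteins and proteoglycans 10 were higher at an unadjusted p under 0.05 and 0 lower, and the median was 0.85. Of 20 tested collagens 4 were higher and 0 lower, and the median was 1.01, but the groups overlapped for all 20. Over all genes 9.08% were higher and 7.08% lower at that p. With no overlap, 4.15% of all genes were higher and 2.53% lower. Fbn2, fibrillin-2 of microfibrils, was at 16.3, 14.9 and 19.1 TPM in DKO tumor and at 0.41, 0.94, 9.19, 9.27, 0.31 and 0.43 TPM in DKO yBM (log2 fold change 2.63 ± 0.75 SE, limma adjusted p = 0.14). Hspg2, the basement membrane proteoglycan perlecan, was at 128, 109 and 93.8 TPM in DKO tumor and at 22.7, 29.8, 85.5, 90.2, 16.6 and 26.0 TPM in DKO yBM (1.56 ± 0.49 SE, adjusted p = 0.17). Both were high in DKO yBM 3 and 4, the pair of yBM libraries with the least leukocyte RNA. Col6a3 showed the same split, with 560, 349 and 184 TPM in DKO tumor and 30.4, 94.3, 358, 358, 26.2 and 33.6 TPM in DKO yBM (1.97 ± 0.79 SE, adjusted p = 0.26). Col4a1, of basement membranes, was at 585, 414 and 48.3 TPM in DKO tumor and at 30.2 to 113 TPM in DKO yBM (1.81 ± 0.73 SE, adjusted p = 0.26). DKO tumor 3 had the lowest mean collagen level of the tumors, 3.20, within the 2.63 to 4.10 of DKO yBM. With the leukocyte covariate the medians were 0.75 for collagens and 0.41 for glycoproteins, and without DKO tumor 1 the collagen median was 0.52.

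Myc and the other genes that the text of the study names were read whatever their values. Myc was at 40.9, 43.3 and 55.8 TPM in DKO tumor and at 24.8, 34.6, 17.0, 14.4, 17.8 and 19.5 TPM in DKO yBM, against 11.3 to 37.7 TPM in control BM. The groups did not overlap, but the gene did not pass the test (log2 fold change 1.14 ± 0.43 SE, limma adjusted p = 0.24). Mcm7, a subunit of the replicative helicase, was at 115, 45.4 and 95.7 TPM in DKO tumor and at 46.0 to 83.0 TPM in DKO yBM (0.43 ± 0.32 SE, adjusted p = 0.51). Rrp9, a nucleolar protein, was at 71.4, 40.5 and 80.0 TPM in DKO tumor and at 33.1 to 64.1 TPM in DKO yBM (0.48 ± 0.25 SE, adjusted p = 0.35). Rcc1, the exchange factor of Ran, was at 31.3, 11.1 and 28.1 TPM in DKO tumor and at 9.22 to 25.5 TPM in DKO yBM (0.52 ± 0.38 SE, adjusted p = 0.50), and the nuclear transport GTPase Ran was at 180 to 304 TPM and 190 to 245 TPM (0.12 ± 0.22 SE, adjusted p = 0.79). In Mcm7, Rrp9 and Rcc1 DKO tumor 2 lay within the yBM range or just under it, while DKO tumor 1 and 3 lay above it. The contractile gene Mylk was at 57.9, 18.2 and 55.9 TPM in DKO tumor and at 46.6 to 111 TPM in DKO yBM (-0.93 ± 0.39 SE, adjusted p = 0.27), and Nid2, of basement membranes, was at 41.1, 23.4 and 18.9 TPM and at 24.5 to 68.9 TPM (-0.65 ± 0.35 SE, adjusted p = 0.35).

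Of 50 tested nucleolar Myc targets 0 were called, 15 were higher and 0 lower at an unadjusted p under 0.05, and the median was 0.46. The background over all genes is 9.08% higher and 7.08% lower at that p. The groups did not overlap for 2 of the 50, both higher, a share near the 4.15% of all genes, and the mean level of the list was 5.57, 5.13 and 5.89 in DKO tumor 1 to 3 and 4.94 to 5.43 in DKO yBM. Utp20, of ribosome assembly, was at 10.4, 11.4 and 16.4 TPM in DKO tumor and at 3.98 to 8.81 TPM in DKO yBM (log2 fold change 0.96 ± 0.30 SE, limma adjusted p = 0.17). Of 43 tested genes of the MCM helicase and replication initiation 2 were higher and 2 lower at an unadjusted p under 0.05 (median 0.24), and of 40 mitosis genes 3 were higher and 0 lower (median 0.48), with no call in either list. Cenpf, a kinetochore protein, was at 7.26, 9.09 and 13.8 TPM in DKO tumor and at 1.65 to 5.18 TPM in DKO yBM (1.53 ± 0.52 SE, adjusted p = 0.19). Of 36 tested p53 targets 0 were called, 2 were higher and 2 lower at an unadjusted p under 0.05, and the median was 0.10, in groups that both lack p53 by label.

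Stress, sugar and Yap genes are given by the same counts, beside 9.08% of all genes higher and 7.08% lower at an unadjusted p under 0.05, and 4.15% higher and 2.53% lower with no overlap. Of 32 tested genes of the unfolded protein and amino acid stress responses 10 were higher and 0 lower at an unadjusted p under 0.05, and the groups did not overlap for 7, all higher. Hsp90b1, the chaperone GRP94 of the endoplasmic reticulum, was at 445, 622 and 1129.8 TPM in DKO tumor and at 335, 421, 332, 297, 329 and 365 TPM in DKO yBM (log2 fold change 0.98 ± 0.29 SE, limma adjusted p = 0.16), and it was called without DKO tumor 1 (1.28, adjusted p = 0.043). Slc7a5, a transporter of large neutral amino acids, was at 67.9, 84.0 and 67.6 TPM in DKO tumor and at 15.3 to 37.4 TPM in DKO yBM (1.48 ± 0.47 SE, adjusted p = 0.18). Of 27 tested glycolysis genes 8 were higher and 1 lower at an unadjusted p under 0.05, and the groups did not overlap for 7 higher and 1 lower. Eno1, enolase, was at 1849, 1019 and 1708 TPM in DKO tumor and at 619 to 976 TPM in DKO yBM (0.90 ± 0.30 SE, adjusted p = 0.19), and Slc2a1, the glucose transporter GLUT1, was at 23.2, 36.4 and 29.6 TPM and at 11.4 to 17.4 TPM (0.90 ± 0.32 SE, adjusted p = 0.21). Aldoc, an aldolase, was the gene with lower values, with 1.13 to 4.85 TPM in DKO tumor and 6.06 to 24.6 TPM in DKO yBM (-1.98 ± 0.53 SE, adjusted p = 0.12). Of 24 tested Yap and Taz genes 6 were higher and 1 lower at an unadjusted p under 0.05, and 6 did not overlap, all higher, among them Tead1, a DNA-binding partner of Yap, at 10.8, 42.6 and 19.5 TPM in DKO tumor and 3.92 to 10.4 TPM in DKO yBM (1.53 ± 0.49 SE, adjusted p = 0.18). The medians were 0.50 for the stress list, 0.47 for glycolysis and 0.64 for Yap and Taz genes. With the leukocyte covariate they were 0.23, 0.47 and -0.065, and no member was called in any of the 3.

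In the Wnt list 7 of 32 tested genes were higher and 1 lower at an unadjusted p under 0.05, with no call and a median of 0.36. Over all genes 9.08% were higher and 7.08% lower at that p. Wnt5a, a ligand of the pathway without beta-catenin, was at 6.49, 24.6 and 25.6 TPM in DKO tumor and at 0.92 to 7.49 TPM in DKO yBM (log2 fold change 2.22 ± 0.65 SE, limma adjusted p = 0.15), and Lrp6, a Wnt coreceptor, was at 11, 37.8 and 17.1 TPM and at 5.68 to 10.7 TPM (1.24 ± 0.38 SE, adjusted p = 0.17). DKO tumor 1 was the lowest of the tumors for both. Igf1r, the receptor of insulin-like growth factor, was at 26.2, 18.5 and 9.84 TPM in DKO tumor and at 2.95 to 9.72 TPM in DKO yBM (1.31 ± 0.41 SE, adjusted p = 0.17).

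Set 2 holds the same comparison by label in other libraries, and the white blood cell genes had fold changes near 0 there. Wwox was at 5.23, 4.78 and 4.26 TPM in the DKO tumor libraries of set 2 and at 0.78, 0.17 and 0.029 TPM in its DKO yBM libraries, against 2.97 to 4.05 TPM in its control BM (log2 fold change of tumor minus yBM 2.16 ± 0.65 SE, limma adjusted p = 0.64). All 3 libraries labelled DKO tumor there went against their label at Wwox and lay above control BM, so any direction drawn from set 2 rests on labels that Wwox does not bear out. In its fit, 9 of 13145 genes (0.0685%) were called and 586 had an unadjusted p under 0.05, and none of the 9 was among the 22. The median of the leukocyte list was 0.0071 in set 2, where its mean level was 0.28 to 0.45 in DKO tumor and 0.40 to 0.49 in DKO yBM, near that of DKO tumor 2 and 3 of set 1. Rac2 had a log2 fold change of 0.011 in set 2, Cyth4 of -0.19, Clec12a of -0.48, Ccl3 of -0.20 and Lat2 of -0.0084. In its DKO tumor and DKO yBM libraries Rac2 reached at most 0.021 TPM, Cyth4 0.43, Clec12a 0.84, Ccl3 0.81 and Lat2 1.85 TPM. At such levels in both groups only small fold changes were possible. Pabpc4 had a log2 fold change of 0.068 in set 2. Ptn and Plekhb2 had values close to those of set 1, 3.04 (limma adjusted p = 0.89) and -1.21 (adjusted p = 1.0), neither past the threshold. Of the 22 genes 19 had the same sign in both sets, the exceptions being Rgs10, Tceal3 and Rac2. No share over all genes stands beside that count, and the signs of Rac2 and Lat2 in set 2 rest on fold changes near 0. Across genes, Pearson's r between the log2 fold changes of the sets was 0.14. The median absolute log2 fold change of the 22 was 2.76 in set 1 and 0.46 in set 2. Myc had a log2 fold change of 0.65 in set 2 (limma adjusted p = 1.0). The median of the nucleolar Myc targets was -0.025 there, against 0.46 in set 1, and that of all genes in set 2 was 0.011. The tested difference between the sets was called for 4 of 13218 genes (0.0303%), Amd2, Gm10260, AC154457.3 and Myl12b, none of them among the 22, and 925 had an unadjusted p under 0.05. So no gene of the 22 was shown to differ between the sets, and the smallest adjusted p of that test was 0.097 for Tceal3 and 0.145 for Rac2 and Rgs10. Without DKO tumor 1, 88 genes were called in the test of the difference.

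**Figure D4:**
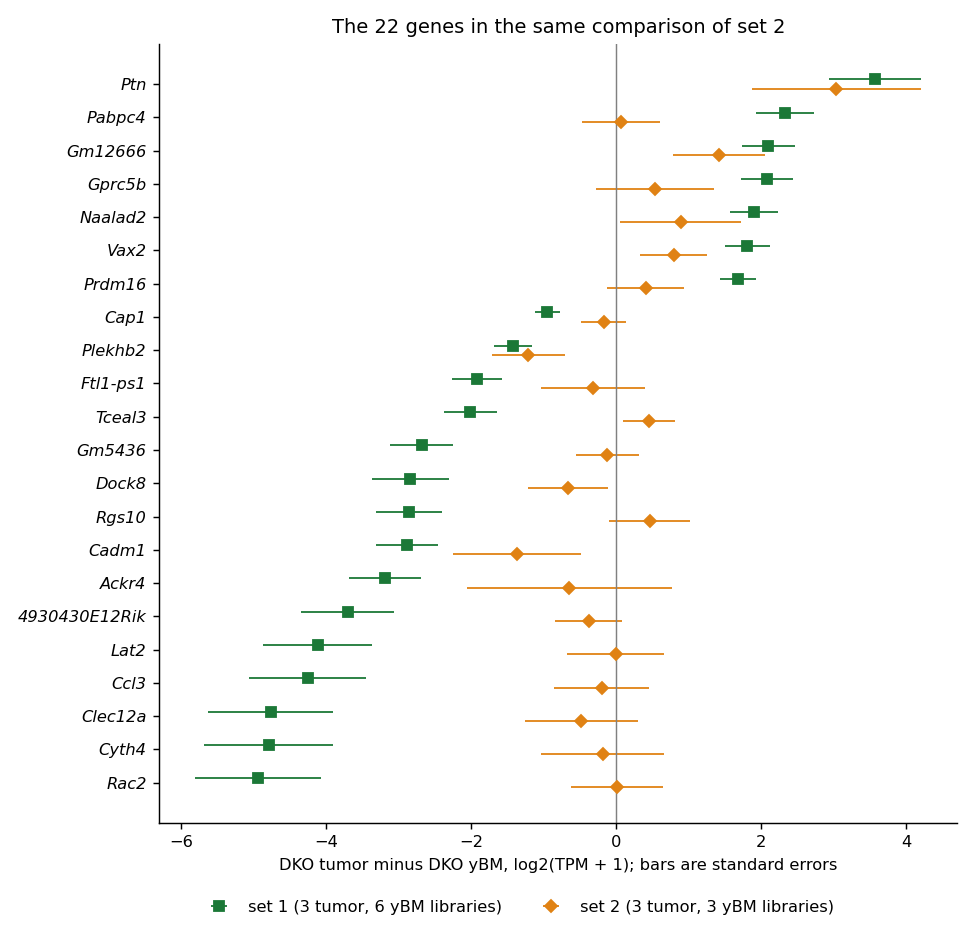
Log2 fold change of DKO tumor minus DKO yBM with its standard error for the 22 called genes in set 1 (squares) and in set 2 (diamonds). Ptn lies at 3.57 and 3.04 and Plekhb2 at -1.43 and -1.21, while the white blood cell genes at the bottom lie near 0 in set 2.

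The yBM group itself spans 2 ages, and each age was also taken as the only yBM group. Against the 1.5 month libraries 0 genes were called by limma, with 1070 at an unadjusted p under 0.05, and against the 4 month libraries 1 was, with 1849. That gene was not among the 22. The log2 fold changes of the 22 kept their sign. Rac2 was at -4.81 against 1.5 months and -5.08 against 4 months, Cadm1 at -2.72 and -3.06, Ptn at 3.68 and 3.47, and Pabpc4 at 2.38 and 2.28. Leaving out libraries one at a time moved the count, from 0 to 319, and values moved as well. The median of the leukocyte list, -4.08 with all libraries, was -6.06 without DKO tumor 1 and -3.06 without DKO tumor 2. All 22 genes were again called without DKO tumor 1, among 319, and without DKO yBM 3, among 228. Without DKO tumor 3, 7 genes were called and 3 of the 22 remained, without DKO yBM 4, 14 and 11, and without DKO yBM 6, 1 and 1.

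**Figure D5:**
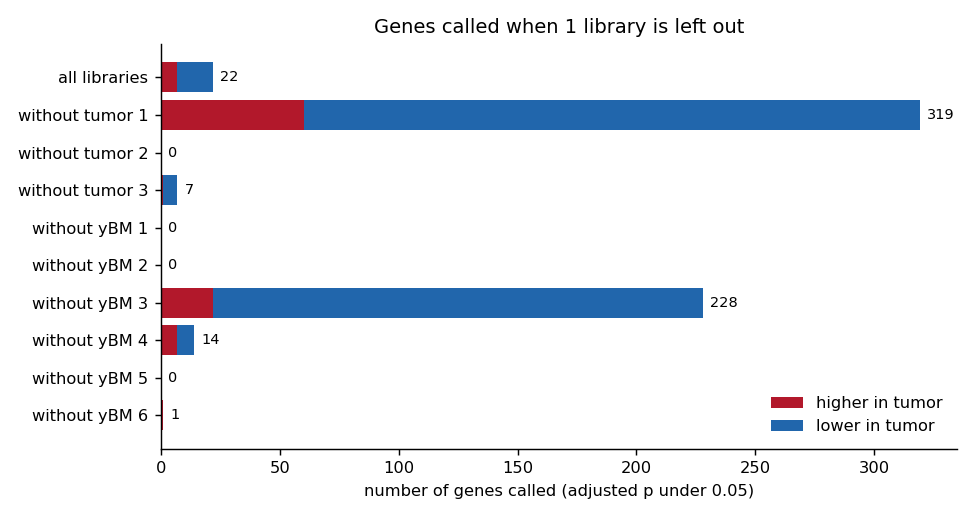
Number of genes called (limma adjusted p under 0.05) with all libraries and with each of the 9 compared libraries left out, split into genes higher and lower in DKO tumor. The count is 22 with all libraries, reaches 319 without DKO tumor 1 and 228 without DKO yBM 3, and is 0 in 4 of the 9 cases.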

How the data were processed

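RNA was taken from cultured cells, and per the labels poly-A RNA was made into libraries with the KAPA Stranded mRNA-Seq Kit and sequenced on a NextSeq 500. Per the submitters' processing notes, reads were trimmed with Trim Galore 0.6.1 (the paper names another version) and inspected in FastQC, and salmon gave transcript levels, which the authors deposited as TPM for 51123 gene IDs (the notes name the mm39 build). Of these, 48246 were matched to a symbol. TPM keeps no sequencing depth, so no counting error can be given, and a few transcripts that take a large share of a library lower all others. Reads of near-identical copies may be split between them.

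The design was DKO tumor minus DKO yBM on log2(TPM + 1), with a pseudocount of 1, in limma 3.58.1 (R 4.3.3) with a mean-dependent prior and p-values adjusted by Benjamini-Hochberg over the 13218 genes that reached 1 TPM in 3 or more of the 9 libraries. All 16 libraries of set 1 entered the fit. The authors used DESeq2 on 16 samples, which needs counts. A fold change on this scale understates the change of low genes. The methods give 6 mice without and 6 with tumors for the 6 yBM and the 6 tumor and BMT libraries, although BMT cells are elsewhere called paired with the tumors, and no label ties a library to a mouse. Genes named are those the study's text names; in each direction the 15 called genes of largest change with no overlap between groups and at least 5 TPM in the higher group, filled up by smallest p among genes with no overlap, with no gene models or sex-linked genes; and, for each of 44 gene lists, the 3 members of smallest p, of which those that bear on a result are given. Some genes of the rule are not reported here. The members and lists were chosen with earlier results of these data known, and the lists were written from memory. The alternatives were other pseudocounts and filters, scalings, libraries left out, age groups and a leukocyte covariate. The fit was tested on simulated data.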

Additional observations from a re-analysis of the deposited data

Results flagged for a closer look

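Among 93 named genes, 6 had a yBM library apart from the other 5, by Dixon's test of the gap over the range at the 95% level, and chance alone gives about 5% of groups. In DKO yBM 4, Aldoc was at 24.6 TPM (the others at 6.06 to 11.7 TPM), Tnfrsf11a at 9.37 TPM (2.80 to 5.01 TPM) and the pseudogene Rpsa-ps10 at 1.91 TPM (all others listed at 0). In DKO yBM 2, Spp1 was at 5213 TPM (627 to 1564 TPM) and Tceal3 at 12.8 TPM (4.49 to 5.6 TPM). In DKO yBM 1, Gm5436 was at 12.0 TPM (3.87 to 5.41 TPM). The 3 tumor libraries are too few for this rule.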

How the results depend on the processing

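The count of 22 called genes (limma, adjusted p under 0.05) stayed within 1.5 times with median-ratio scaling (24), without the mitochondrial genome (21) and with a robust prior (17). It was 102 with a pseudocount of 0.1 (91 lower), 8 with a pseudocount of 5, 9 with no filter on low values (2 of them among the 22), 3 with a filter of 5 TPM, 12 with only the 9 compared libraries in the fit, 14 with quantile normalization, 0 against the 1.5 month libraries, 1 against the 4 month libraries, 1 for the mean of the 2 ages, 0 with the leukocyte covariate (860 genes at an unadjusted p under 0.05) and 96 without the libraries whose Wwox level goes against the label. The last was chosen after seeing the data, leaves DKO yBM with 1 library, and assumes that it varies like the other groups. Leaving out 1 library gave 0 to 319 genes. With the replicate number as a block (replicate block) the count was 0, with 794 genes at an unadjusted p under 0.05. The labels do not say whether same-numbered tumor and yBM libraries share a litter or day, and the samples were not taken as paired. Deviations of same-numbered tumor and yBM libraries had r of 0.15, -0.13 and 0.20. Those of libraries with different numbers ranged from -0.22 to 0.25, so these values cannot decide the question. The test of the difference between the sets, which called 4 genes, called 2 with a pseudocount of 0.1 (both among the 4), 4 with quantile normalization (3 among them) and 88 without DKO tumor 1 (all 4 among them).

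Over 93 named genes and 24 settings, 11 of 2222 values had the other sign, all of genes that were not called. With the leukocyte covariate Trp53 was at 0.23, Cd36 at 0.39, Adipoq at 3.96 and Ran at -0.088. Ran was also at -0.088 with median-ratio scaling and at -0.019 with the replicate block, where Adipoq was at 0.55. Over the libraries left out 1 at a time, Ran ranged from -0.078 to 0.30, Sp7 from -1.98 to 0.40 and Adipoq from -2.55 to 0.27. The causes were not tested. With 3 tumor libraries that differ among themselves, the precision is set by their spread, and depth is unknown.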
